A study of Mus musculus with 6 samples.

Results

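The late cornified envelope 1 (Lce1) genes are a family of small genes on mouse chromosome 3. The 9 members described here, Lce1a1, Lce1b, Lce1c, Lce1d, Lce1e, Lce1f, Lce1g, Lce1h and Lce1i, were chosen by the measured FPKM of Lce1g, which had been seen to be higher after PM2.5 exposure, and their symbols were matched to gene identifiers by GENCODE M21. They are 9 of the 54886 genes listed in each library. Since the values of Lce1g in this comparison chose the family, its values are given as a description and without a test. The question was whether a single gene of the cluster was higher in the exposed cells, and in which libraries each member was detected.

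RNA was sequenced from GC-2spd, an immortalised line derived from mouse spermatocytes, in 6 libraries, 3 of each group. The control group received 0 μg/mL of particles in normal culture medium (the methods of the study also name PBS), and the other group was exposed to PM2.5 at 100 μg/mL, both read at 48 h. The particles were a standard reference urban dust and not freshly sampled air. All libraries came from 1 cell line. The labels do not say whether the replicates were separate cultures, and the methods of the study describe its quantitative data only in general as coming from repeated experiments. If the libraries did not come from separate cultures, p-values measure only a technical spread.

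Late cornified envelope proteins are small proteins rich in cysteine, glycine and serine. In the outer epidermis they are crosslinked by transglutaminases onto the inner face of the dying keratinocyte, where they become part of the cornified envelope that makes skin a barrier. Their genes lie in the epidermal differentiation complex, beside those of the small proline-rich proteins, loricrin, involucrin, filaggrin and the S100 proteins. The cells studied here are not epidermal, and these genes are known as markers of late keratinocyte differentiation.

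The defining markers of both cell types were mostly low. Of 10 spermatocyte markers, 4 had no read in any library, and the most abundant, Sycp3 (a component of the synaptonemal complex), had 8, 42 and 9 reads in the control group and 0, 6 and 10 after exposure. The summed FPKM of the 10 markers was 0.454 to 2.59 in the control group and 0.0416 to 0.612 after exposure. The upper control sum was that of control replicate 2, where Sycp3 had an FPKM of 2.56, against 0.341 and 0.395 in control replicates 1 and 3. Of 12 keratinocyte markers, 5 had no read, namely the keratins Krt5, Krt15 and Krt1 and the desmosomal cadherins Dsg3 and Dsc3. Another 6 of the 12 (Krt10, Krt14, Sfn, Cdh3, Col17a1 and Itgb4) had at least 3 reads in every library, against 0 of the 10 spermatocyte markers. The reads of Col17a1 did not come out as whole numbers in any library, so its counts are approximate. The summed FPKM of the 12 was 14.9 to 25.3 in the control group and 16.4 to 19.3 in the exposed group, of which Cdh3 (P-cadherin) alone gave 10.2 to 14.6 across the 6 libraries. The upper control sum was again that of control replicate 2. There Krt10 had an FPKM of 6.64 and Sfn 6.12, against 1.84 and 3.20, and 1.54 and 2.54, in control replicates 1 and 3. The part of a change in cell makeup in the values below was not tested, and in bulk RNA fewer cells expressing a gene and less RNA per cell cannot be told apart.

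Total recovered reads were between 16209346 and 18003196 in the 6 libraries. Control replicate 2 stood apart, with a size factor of 0.755 against 1.04 to 1.09 in the others, so that its effective depth for most genes was lower. Its mitochondrial genes held 14.5% of the reads, against 1.65% to 1.95% in the other 5 libraries. Fold changes that rest on it are given below with and without it, while the marker sums above include it. PM2.5 replicate 3 also differed from the other exposed libraries. Across genes, its Pearson correlation was 0.972 with control replicate 1 and 0.972 with control replicate 3. With PM2.5 replicate 2 it was 0.958, and with PM2.5 replicate 1 it was lower still. PM2.5 replicates 1 and 2 correlated at 0.991. The cause was not tested. A read here is 1 count in the authors' table, recovered from the deposited FPKM (fragments counted on a gene, scaled to its length and to the depth of the library), and all 9 Lce1 genes gave whole numbers of reads in all 6 libraries.

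Lce1g lies on the minus strand of chromosome 3 (GRCm38) from 92750148 to 92752338, as a gene of 2 exons. Its transcript is 925 bases long, with a 5′ untranslated region of 73 bases, a coding sequence of 420 bases including the stop codon, and a 3′ untranslated region of 432 bases. The other 8 members also have 2 exons, with transcripts of 647 to 731 bases, coding sequences of 402 to 450 bases and 3′ untranslated regions of 161 to 220 bases. The 9 genes span 132 kb, and 8 of them lie on the minus strand, with Lce1c on the plus strand. No other annotated gene overlaps Lce1g.

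The coding sequences are alike, which bears on whether reads can be told apart. The first 90 coding bases are shown for Lce1g and for the 2 members on its higher-coordinate side, taken from GENCODE M21, with bases that differ from Lce1g in capitals.
Lce1g: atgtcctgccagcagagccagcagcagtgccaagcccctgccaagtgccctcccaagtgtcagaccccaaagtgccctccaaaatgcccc
Lce1h: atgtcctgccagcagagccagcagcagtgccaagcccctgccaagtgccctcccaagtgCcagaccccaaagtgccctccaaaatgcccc
Lce1i: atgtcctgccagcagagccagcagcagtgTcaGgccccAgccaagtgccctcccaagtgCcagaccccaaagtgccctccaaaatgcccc
Lce1h differed from Lce1g at 1 of these 90 bases and Lce1i at 4. Over the whole coding sequence, Lce1g was identical to the other members at 78.2% (Lce1d) to 91.2% (Lce1a1) of aligned positions, gaps included. The 3′ untranslated regions were less alike, with 27.3% (Lce1b) to 44.2% (Lce1i) identity to that of Lce1g.

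Sequence shared with other genes was measured over each transcript. Of the 31-base sequences of Lce1g, 38.5% occur in the transcripts of another gene, 68.8% within the coding sequence and 10.1% within the 3′ untranslated region. At 75 bases the share was 4.94%, and at 150 bases, the read length of the study, it was 0%. Among the 9 members the shared part ranged from 33.2% (Lce1f) to 58.9% (Lce1i) at 31 bases and from 4.59% (Lce1f) to 13.5% (Lce1e) at 75 bases, and it was 0% for all 9 at 150 bases. The other genes that shared most 31-base sequences with Lce1g were Lce1j (172 of its 895), Lce1e (157), and Lce1c and Lce1i (155 each). Reads placed at several genes, or with errors, could still have been dropped or assigned to a relative by the authors' counting, so the division of reads among Lce1 genes is uncertain to that extent.

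**Figure D1:**
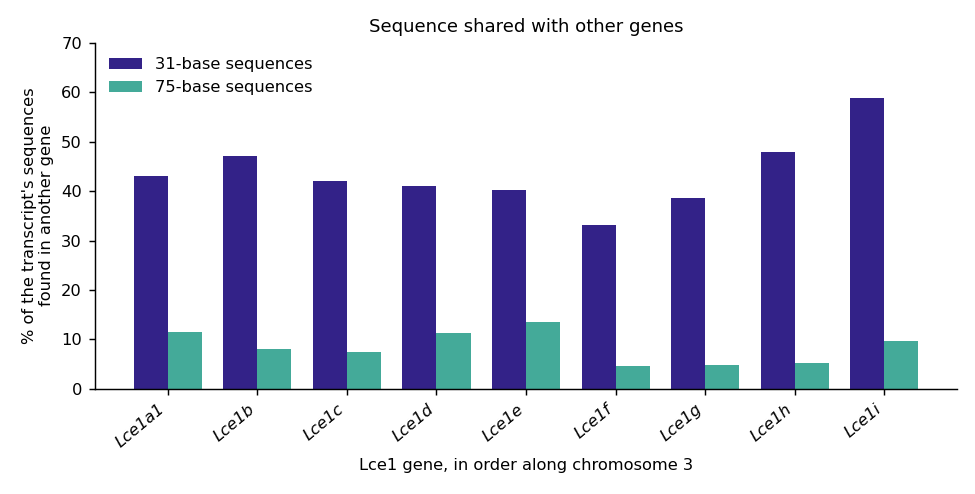
Percentage of each Lce1 transcript's 31-base and 75-base sequences (vertical axis) that are found in the transcripts of another gene, for the 9 members in order along chromosome 3. For Lce1g the bars stand at 38.5% and 4.94%, within the range of the other members at both lengths, and at 150 bases no sequence was shared by any member, so no bar is drawn.

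Lce1g had 3, 1 and 4 reads in control replicates 1, 2 and 3, and 60, 66 and 63 reads in the PM2.5 libraries. Every exposed library lay far above every control library, and the 3 exposed libraries differed from each other by less than counting alone gives on average (SD of 3 reads, against a square root of the mean of 7.94). An SD from 3 libraries is itself uncertain, so unusually close replication is not read from it. Its FPKM was 0.175, 0.0833 and 0.240 in the control group and 3.63, 4.02 and 3.77 after exposure. Its control libraries averaged an FPKM of 0.166 ± 0.0786 (SD, n = 3), and its PM2.5 libraries 3.81 ± 0.198 (SD, n = 3), a ratio of 22.9. From the pooled reads, scaled by the deposited denominators, the ratio was 21.8, with a 95% exact interval of 10.8 to 51.3 that covers counting error only. It lay between 18.4 (without control replicate 2) and 27.8 (without control replicate 3) when a library was left out. On the scale of log2(FPKM + 1), which understates the change of low genes, the difference was 2.04.

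The other 8 members were near or at 0 in both groups. Lce1f had 4 reads in PM2.5 replicate 2 (FPKM 0.310) and 0 reads in the other 5 libraries. Lce1h had 1 read in PM2.5 replicate 1 (FPKM 0.0793) and 0 reads in the other 5 libraries. Lce1a1, Lce1b, Lce1c, Lce1d, Lce1e and Lce1i had 0 reads in all 6 libraries. With a floor of 3 reads, a count of 0 in a PM2.5 library allows these 6 genes an FPKM of up to 0.227 to 0.261, depending on length and library. Per length, the FPKM of Lce1g was at least 13.99-fold to 17.4-fold higher than theirs in the same PM2.5 libraries. In the control libraries, where Lce1g itself had 1 to 4 reads, no such difference was detectable at this depth.

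**Figure D2:**
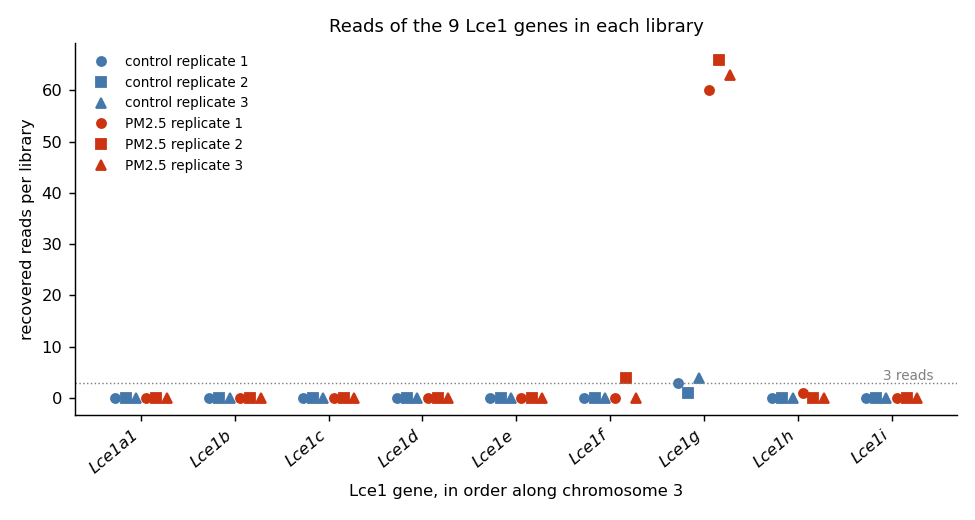
Recovered reads (vertical axis) of the 9 Lce1 genes, in order along chromosome 3, with 1 point for each of the 3 control (blue) and 3 PM2.5 (red) libraries and a dotted line at the floor of 3 reads. Lce1g stands at 60 to 66 reads in the PM2.5 libraries and at 1 to 4 in the control libraries, while no other member exceeds 4 reads in any library.

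Detection was counted per library. At a minimum of 3 reads, 1, 0 and 1 of the 9 members were detected in control replicates 1, 2 and 3, and 1, 2 and 1 in the PM2.5 libraries. Lce1g alone of the 9 reached 3 reads in every PM2.5 library, and 0 members did so in every control library. Over all genes with a length, 27.3% reached 3 reads in every PM2.5 library and 26.2% in every control library. At a minimum of 10 reads, Lce1g was again the 1 member in every PM2.5 library, and 0 members reached it in any control library. Lce1g held 189 of the 194 Lce1 reads of the PM2.5 libraries (97.4%, exact 95% interval 94.1% to 99.2%, counting error only) and all 8 of those of the control libraries.

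The non-overlap of Lce1g is set by the choice of the family and has no weight as a test. For the same reading over all genes in the files, 2.83% had every PM2.5 library above every control library and 2.38% had every PM2.5 library below. Among the genes with a length, 11 (0.0202%) had at least 10 reads in every PM2.5 library and at most 5 in every control library. Besides Lce1g they were Ahrr, Cyp1a1, Ass1, AA467197, Shcbp1l, Evi2a, 1110002E22Rik, the antisense RNA Tomm6os and the pseudogenes Bloc1s2-ps and Gm9057, of which all but Cyp1a1 were named after their values were seen. Cyp1a1, a cytochrome P450 known to respond to aryl hydrocarbon receptor (AhR) ligands, had 2, 0 and 0 reads in the control group and 306, 302 and 400 after exposure. Ahrr, the repressor of that receptor, had 4, 2 and 3 reads in the control group and 26, 24 and 24 after exposure. Lce1g had the second highest reads of these 11 genes in each PM2.5 library, after Cyp1a1.

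The rest of the cluster was examined from Lce6a to Lce1m, a stretch of 399 kb with 31 annotated genes. In this stretch 21 genes had no read in any library, and of its 21 Lce genes 14 had none. In every PM2.5 library 4 genes reached 3 reads, and in every control library 3, against 27.3% and 26.2% of all genes with a length. The groups did not overlap for 3 genes, with Lce1g and Crct1 higher and Kprp lower after exposure. Over all genes in the files, 2.83% were higher and 2.38% lower in this way. Counts this small in 31 genes, with Lce1g among them by choice, are a description only. The nearest non-member genes toward lower coordinates were Gm38119 and Lce1a2, with 0 reads in all libraries, and the pseudogene Gm4202, with 286, 25 and 284 reads in the control group and 197, 218 and 257 after exposure. Gm4202 overlapped between groups, with its lowest library in control replicate 2. Toward higher coordinates, Lce1j had 0 reads in all libraries and Lce1k had 2 reads in PM2.5 replicate 2 and none elsewhere.

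Kprp, which encodes a keratinocyte proline-rich protein, is the third of the neighbours on that side. It had 14, 12 and 17 reads in the control group and 12, 9 and 5 after exposure. In FPKM its control libraries lay above its PM2.5 libraries, with a pooled ratio of 0.558 (95% exact interval 0.329 to 0.929, counting error only), or 0.451 to 0.680 with 1 library left out. The interval passed 1 without control replicate 3 (0.328 to 1.05) and without PM2.5 replicate 3 (0.383 to 1.17). Crct1, a cysteine-rich gene at the far end of the cluster 262 kb from Lce1g, had 3, 7 and 4 reads in the control group and 16, 37 and 15 after exposure. Its pooled ratio was 4.48 (2.498 to 8.63), and 3.05 without PM2.5 replicate 2 or 6.62 without control replicate 2. Crct1 was below the mean FPKM of 1 needed for the test.

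**Figure D3:**
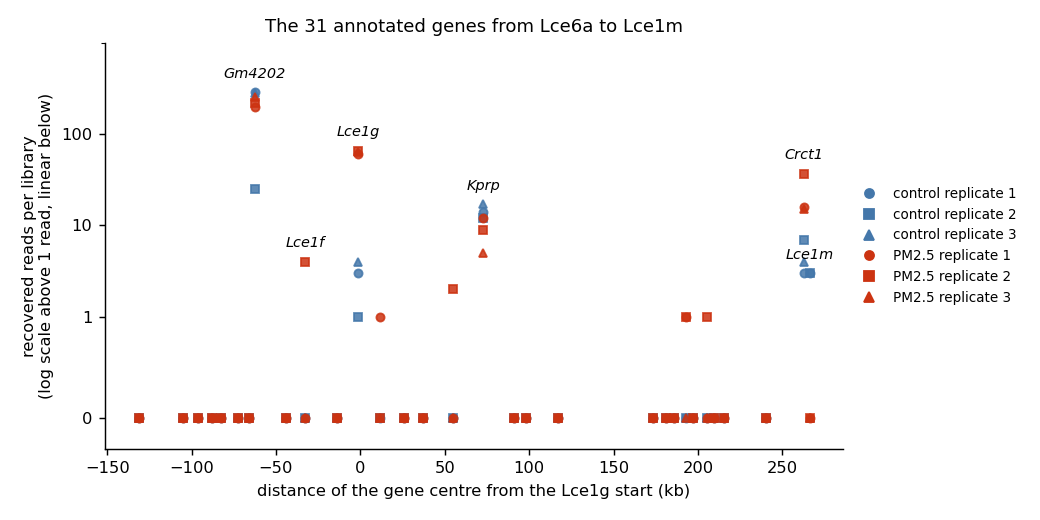
Recovered reads per library (vertical axis, log scale above 1 read) of the 31 annotated genes from Lce6a to Lce1m against the distance of the gene centre from the start of Lce1g in kb, with a point for each library. Most genes lie at 0, Lce1g and Crct1 have all PM2.5 points above all control points, and Gm4202 has the highest reads of the stretch in each of the 6 libraries.

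The 5 genes whose profile was nearest to that of Lce1g were found among the 11883 other genes whose FPKM averaged 1 or more. The measure was the root mean square distance between the log2(FPKM + 1) values of the 6 libraries, each gene first centred on its own mean, with a median of 1.06 over all genes compared. Hmox1, which encodes heme oxygenase 1, was nearest at a distance of 0.175, with FPKM of 25.8, 20.4 and 26.6 in the control group and 127, 118 and 90.03 after exposure. Xdh, xanthine dehydrogenase, followed at 0.200, with FPKM of 4.45, 2.39 and 4.28 against 18.1, 17.3 and 14.9. The small nucleolar RNA Gm25128 stood at 0.213 but rested on 0 reads in each control library and 3, 3 and 5 after exposure. Slc22a23, a member of an organic ion transporter family, stood at 0.295 and Ptx3, the secreted pentraxin 3, at 0.325. Both had every PM2.5 library above every control library. As the genes were picked for their likeness to Lce1g, which was itself chosen for being higher after exposure, this separation follows from the selection. These levels are a description over 6 libraries. On the log2(FPKM + 1) scale the differences of the 5 genes were 1.43 to 2.15, against 2.04 for Lce1g. That scale understates the change of low genes such as Lce1g, so likeness on it does not mean an equal fold change. The mean FPKM of Lce1g rose by a ratio of 22.9. Hmox1 went from an FPKM of 20.4 to 26.6 in the control group to 90.03 to 127 after exposure.

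**Figure D4:**
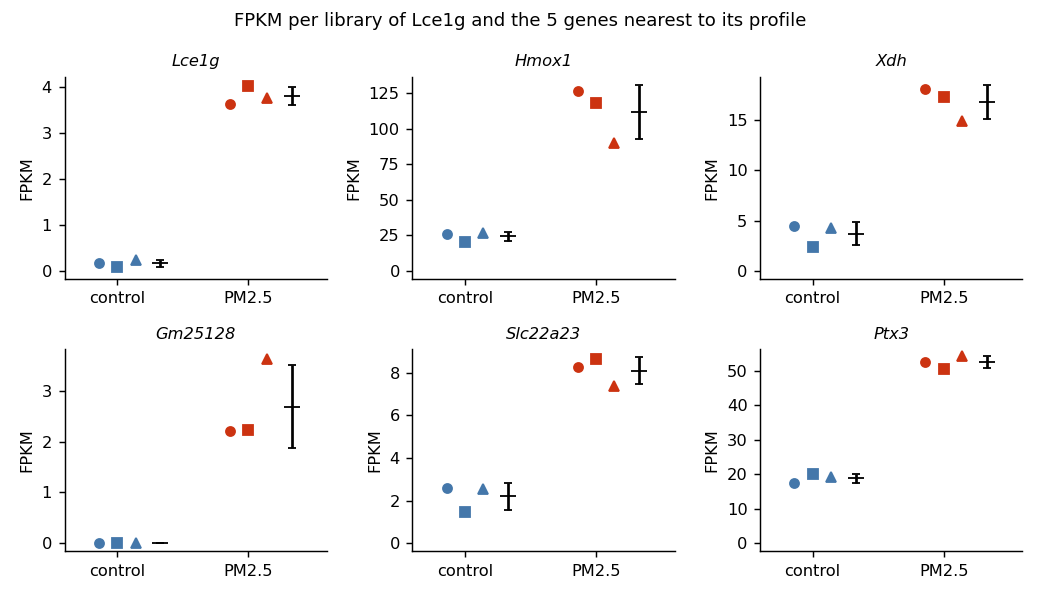
FPKM (vertical axes, each from about 0) of Lce1g and the 5 genes nearest to its profile in the 3 control (blue) and 3 PM2.5 (red) libraries, with circles, squares and triangles for replicates 1, 2 and 3 and black marks for the mean ± SD. In each panel all PM2.5 points lie above all control points, which the selection of the genes fixes, and Lce1g goes from 0.0833 to 0.240 in the control group to 3.63 to 4.02 after exposure.

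The promoters of the members were compared in the RefSeq table for GRCm38.p6, which matched 8 of the 9 members, with Lce1f missing. The 250 bases before the start of Lce1g were 85.6% identical to those of Lce1i, 84.5% to those of Lce1h and 79.1% to those of Lce1e, and 62.1% to 66.1% to those of the other 4. The last 100 bases before the start are printed for Lce1g, Lce1h and Lce1i, minus strand, with bases that differ from Lce1g in capitals. They are shown because the read counts of these 3 genes differ while their start regions are close in sequence.
Lce1g, chr3:92752339-92752438: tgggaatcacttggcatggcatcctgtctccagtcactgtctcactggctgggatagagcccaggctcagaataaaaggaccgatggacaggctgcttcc
Lce1h, chr3:92765066-92765165: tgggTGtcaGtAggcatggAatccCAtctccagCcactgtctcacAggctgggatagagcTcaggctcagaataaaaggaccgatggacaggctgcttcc
Lce1i, chr3:92778900-92778999: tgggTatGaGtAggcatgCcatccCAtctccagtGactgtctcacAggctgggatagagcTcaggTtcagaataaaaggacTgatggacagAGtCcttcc
Lce1h differed from Lce1g at 10 of these 100 bases and Lce1i at 15. In reads, Lce1h had 0, 0 and 0 in the control group and 1, 0 and 0 after exposure, and Lce1i had 0 in all 6 libraries.

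Short motifs, 4 in all, were searched in the 250 bases before the start on both strands. GCGTG, the core of the AhR element, was found in 1 of the 8 member promoters (Lce1c), against 28.2% of 27025 promoters of the same length. TGANNNNGC, the core of the element bound by NRF2 (an activator of antioxidant genes), was found in 3 (Lce1d, Lce1e and Lce1i), against 35.1%. TGANTCA, the site of AP-1, can overlap the NRF2 core and was found in 0 of the 8, against 6.87%. TATAAA, the TATA box, was found in 1 (Lce1d), against 12.97%. Lce1g held none of these letters in this window, and a match or its absence is a description only.

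Listed genes of the epidermal differentiation complex, of cornification and of its regulation were tested with limma where their level allowed. The test used the log2(FPKM + 1) scale and every gene whose FPKM averaged 1 or more (11884 genes). A call needed a Benjamini-Hochberg adjusted p under 0.05 and a log2 fold change beyond 1 in either direction. Of all genes tested, 0.0337% were called higher and 0.0589% lower. Of 93 listed genes (markers of cell types left out), 28 had no read in any library and 20 could be tested. The 20 were 8 S100 genes, 8 regulators, 3 cornification enzymes or structural proteins and 1 small proline-rich protein gene. Of the other late cornified envelope genes, the other envelope precursors and the S100-fused proteins, 0 could be tested. By limma 0 of the 20 were called in either direction, and 0 had an unadjusted p under 0.05, against 3.795% of all genes tested, a share too small to read anything from a count of 0 in 20. The median log2 fold change of the 20 was -0.01, against 0.02 over all genes tested. Without control replicate 2 these medians were 0.17 and -0.01, and 7 of the 20 genes changed sign. These lists were chosen with results of these data known.

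By role, the envelope precursors nearest to Lce1g in function were scarce. Of 12 other late cornified envelope genes, 8 had no read, and the most abundant, Lce1m, had 3, 3 and 0 reads in the control group and 0 in all PM2.5 libraries. Of 15 small proline-rich protein genes, 5 had no read, and Sprr1a was the 1 member with at least 3 reads in every library, at 93, 85 and 99 reads in the control group and 90, 76 and 95 after exposure. In limma its log2 fold change came to -0.19, with a standard error of 0.19 and an adjusted p = 0.875. Loricrin (Lor) had 11, 9 and 6 reads against 16, 19 and 4, and involucrin (Ivl) 2, 3 and 0 against 1, 0 and 0. Of the 7 S100-fused proteins 6, filaggrin among them, had no read, while trichohyalin (Tchh) had 42, 25 and 34 reads in the control group and 62, 55 and 52 after exposure.

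The enzymes and regulators of cornification gave values that did not pass the test. Of 21 cornification enzymes and structural proteins 5 had no read and 3 were tested, with log2 fold changes of 0.60 for Cdsn (corneodesmosin), 0.26 for Sbsn (suprabasin) and -0.64 for Krt10. Casp14, a caspase of the cornifying epidermis, had 1, 0 and 1 reads in the control group and 3 in each PM2.5 library. Of 16 regulators of epidermal differentiation 8 were tested, 6 with a log2 fold change above 0 and 2 below. For Nfe2l2, which encodes NRF2, limma gave a log2 fold change of 1.17, with a standard error of 0.65 and an adjusted p = 0.875. The log2 fold changes of the other 7 were 0.58 for Klf4, 0.34 for Trp53 (the most abundant of the list), 0.23 for Cebpb, 0.21 for Ahr, 0.17 for Arnt, -0.27 for Gata3 and -0.28 for Maf. Without control replicate 2 the sign changed for 4 of the 8, namely Trp53 (-0.24), Ahr (-0.11), Arnt (-0.26) and Gata3 (0.28). It was kept by Nfe2l2 (0.40), Klf4 (0.28), Cebpb (1.22) and Maf (-0.10). Among the cornification genes it was kept by Cdsn (0.28), Sbsn (0.44) and Krt10 (-0.26). The differences of Cebpb, Klf4 and Krt10 without that library rest on PM2.5 replicates 1 and 2. In PM2.5 replicate 3 their FPKM of 17.0, 7.30 and 3.30 lay on the opposite side of control replicates 1 and 3. Those controls had 19.4 and 19.7 for Cebpb, 8.36 and 7.89 for Klf4, and 1.84 and 3.20 for Krt10. The reads of Nfe2l2 were 1560, 178 and 1511 in the control group and 1854, 1919 and 2236 after exposure, with the lowest in control replicate 2.

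The S100 genes, which encode small calcium-binding proteins, were the most abundant of the complex and depended on the same library. Of 13 listed, 1 had no read and 8 were tested, with a median log2 fold change of -0.43, and of 0.17 without control replicate 2. S100a6 had FPKM of 637, 4338 and 609 in the control group and 624, 551 and 629 after exposure, the high value being that of control replicate 2. Its log2 fold change was -0.99 with all libraries and -0.05 without control replicate 2, and that of S100a11 went from -0.82 to 0.29. Of the 8 tested genes, 3 changed sign. The difference also became smaller in size for S100a1 (-0.69 to 0.06) and S100a10 (-0.47 to -0.24). It became larger for S100a4 (-0.40 to -1.21), S100a7a (0.40 to 0.65), S100a13 (-0.24 to 0.79) and S100a16 (0.21 to 0.36). The FPKM of S100a4, unlike that of S100a6, was lowest in control replicate 2 (4.22, against 28.0 and 27.2 in control replicates 1 and 3). That of Lce1g was also lowest there, which rests on 1 read against 3 and 4.

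Trp63, which encodes the p63 regulator of the epidermal lineage, had 31, 26 and 30 reads in the control group and 5, 4 and 2 after exposure. Its groups did not overlap, with a pooled ratio of 0.117 (95% exact interval 0.0562 to 0.219, counting error only) and 0.0954 to 0.144 with 1 library left out. It was named after its values were seen and was below the level needed for the test. It is also 1 of 10 genes (0.0184%) with at least 10 reads in every control library and at most 5 in every PM2.5 library. Among the 93 listed genes, Casp14, Crct1, Nfe2l2 and Tchh had every PM2.5 library above every control library and Kprp and Trp63 every one below. Of the 20 tested genes this leaves 1 higher (Nfe2l2), where 8.35% of all tested genes had every PM2.5 library above, and 0 lower, where 6.85% had every one below.

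**Figure D5:**
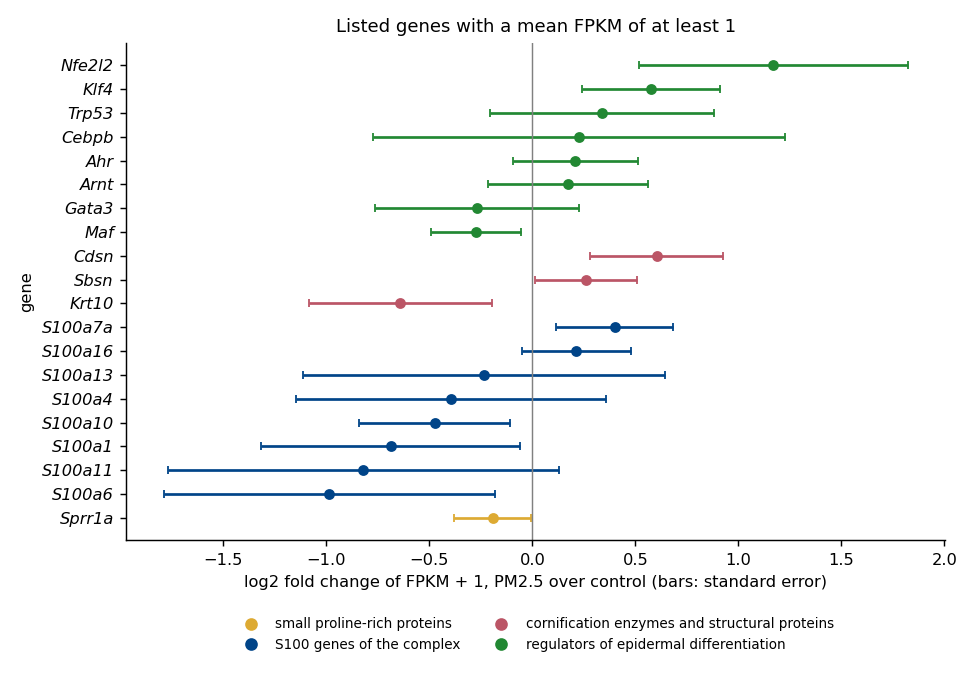
Log2 fold change of FPKM + 1, PM2.5 over control (horizontal axis), with its standard error from limma, for the 20 listed genes that could be tested, coloured by list. Values run from -0.99 (S100a6) to 1.17 (Nfe2l2), and 0 of the 20 passed the test.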

How the data were processed

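Groups and replicate numbers of the 6 GC-2spd libraries, 3 control and 3 with 100 μg/mL of PM2.5 (48 h), came from the sample labels. The authors deposited FPKM per gene, made from 150 bp paired-end reads with Hisat2 and featureCounts (HISAT2 2.0.5 and featureCounts 1.5.0-p3 in the submitters' processing notes). Those notes name the build mm9, while exon lengths of GENCODE M21 on GRCm38 gave whole reads, so positions are given on GRCm38 from GENCODE M21 or RefSeq and not from the files.

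Reads were recovered as FPKM times exon length, divided by the worth of 1 read, which was the step between low values in that library. Within 0.05 of a whole number, 98.1% to 98.4% of values under 50 reads were whole in each library, and 24398 of 25249 expressed genes (96.6%) in all 6. The implied denominators tracked size factors computed from the reads by median of ratios, 0.755 for control replicate 2, so the FPKM were taken as scaled between libraries. FPKM were tested with limma 3.58.1 in R 4.3.3, with its trend and robust options, on log2(FPKM + 1). Voom on the recovered reads was an alternative. Other alternatives were filters, pseudocounts, scaling, a replicate block and leaving out each library. The computation was tested on simulated data. Coding sequences were aligned with Biopython 1.88, as nucleotides in place of the planned amino acids. Confidence intervals are exact at 95%, and floors are 3 reads. Intervals and floors cover counting error only.

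The members, lists and tests were chosen with earlier results of these data known. Named genes are all members, up to 3 of the most abundant of each list, the 3 nearest non-member genes on each side of Lce1g, the 5 nearest profiles and Cyp1a1. The others, among them Ahrr, Ivl, Casp14, Klf4, Ahr, Arnt, Gata3, Maf, Trp63 and the genes that went from few reads to many, were named after their values were seen.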

Additional observations from a re-analysis of the deposited data

How the results depend on the processing

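Lce1g had at least 1, 3 or 10 reads in every PM2.5 library as the 1 member to do so at each minimum. When all 14 annotated Lce1 genes were counted in place of the 9 members, an alternative chosen after seeing the data, the count at 3 reads was again 1. The difference of Lce1g on the log2 scale was 2.04, and 3.92 and 4.55 with pseudocounts of 0.1 and 0.01. It was 2.09 after scaling to recovered totals, which moved the median of all tested genes from 0.02 to 0.13, and 1.99 to 2.09 with 1 library left out. The 31-base share of Lce1g with other genes, 38.5%, fell to 4.94% at 75 bases and 0% at 150 bases, since a longer sequence is shared less often. The count of listed genes called was 0 under every alternative run. Their single values without control replicate 2 were added after seeing the data, and 6 of the 20 then had an unadjusted p under 0.05, in a fit where 1885 of all 11884 genes (15.9%) did.

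The background counts of 4 genes higher and 7 lower moved. They were 0 and 0 without the filter (875 genes at an unadjusted p under 0.05) and 0 and 0 with voom (423). With a pseudocount of 0.1, 2 genes were higher, with 0.01 they were 0 and 1, the minimum FPKM of 0.1 gave 1 lower, and recovered totals 3 lower. With 1 library left out they ranged from 0 to 19 and from 0 to 65, with 19 and 65 without control replicate 2 and 0 without any of the other libraries (197 to 627 genes at an unadjusted p under 0.05). The cause was not tested. With the replicate number as a block they were 0 and 0 (335 genes at an unadjusted p under 0.05), and the difference of Lce1g was 2.04. The same-numbered libraries had deviations correlated at -0.28, 0.18 and 0.25 across genes, so the numbers were not taken to pair the samples.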
